A study of Canis lupus familiaris with 9 samples.

Results

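The cytosolic ribosomal protein genes of the dog were followed across control T cells and T cell lymphomas. Members were the rows whose symbol is RPL or RPS with a number (with an optional A, X, Y or L and a further digit), together with RPLP0, RPLP1, RPLP2 and RPSA where the table holds them. This gave 61 rows, carrying 56 symbols, of 28008 features in the table. Of these, 36 rows belonged to the large subunit and 25 to the small subunit, and 5 symbols (RPL11, RPL26, RPL37, RPS27 and RPS27A) had 2 rows each. The name pattern picks no mitochondrial ribosomal protein gene.

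Each ribosome is built from a large subunit, which joins amino acids into protein, and a small subunit, which reads the messenger RNA. The proteins of both subunits are made in balanced amounts. Their messenger RNAs share a run of pyrimidines at the 5′ end, the TOP motif, through which mTOR and the RNA-binding protein LARP1 set their translation and stability. T cells that leave rest to divide make many ribosomes, and ribosomal protein genes such as RPL5 and RPL22 are mutated or deleted in human T cell leukaemia.

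RNA-seq was run on 9 libraries in 3 groups of 3. The control group, CNTRL, was sorted CD4+ T cells from healthy hounds, all female, not neutered and 1 year old. The group PTL_BOX was peripheral T cell lymphoma of Boxers: a castrated male of 6 years (Boxer 1), a spayed female of 8 years (Boxer 2) and a castrated male of 6 years (Boxer 3). The group PTL_OTH was the same diagnosis in other breeds: a spayed Cavalier King Charles Spaniel of 3 years (other breed 1), a spayed Rhodesian Ridgeback of 4 years (other breed 2) and a castrated Collie of 11 years (other breed 3). The labels call only the controls sorted and give no tissue for the lymphomas, so breed, neutering and sorting move with the contrast of lymphoma against control and cannot be told apart from it. Every dog with lymphoma was also older than the controls. Nothing in the labels says that the 3 control libraries came from separate dogs. The p-values therefore measure the spread between these samples, which may be technical.

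Values are normalised counts, that is, reads per gene divided by 1 size factor per library, and they are compared between libraries, not between genes, because no transcript lengths were used. The libraries held 11710623 to 18488468 reads. T cell markers were present in every library, with summed normalised counts of 98440 to 101670 in the controls and 61242 to 106294 in the lymphomas. No row carried the symbol CD4, so the label of the sorted cells could not be checked with that gene. Mitochondrial genes took 3.12% ± 0.323 (SD, n = 3) of reads in the controls and 9.67% ± 3.26 (SD, n = 6) in the lymphomas.

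Of the 61 rows, 50 reached a normalised count of 10 in at least 3 libraries and were tested, 27 of the large and 23 of the small subunit. The tested row with the fewest reads, RPL21, was at 11.9 or more in all 9 libraries, so no tested row depended on 1 group to pass. Among the 11 others, RPL10L, RPL13, RPL37A, RPL38 and 1 of the RPL11 rows (ENSCAFG00000012252) were listed at 0 in every library. RPL13, RPL37A and RPL38 are part of every cytosolic ribosome, so their zeros are a property of the table. RPLP1, an acidic protein of the stalk that recruits elongation factors, was listed at 0 except for 1.04 in Boxer 3. RPS27L, a relative of RPS27, ran from 0 to 6.82, and both rows of RPL37 and 1 row of RPL26 (ENSCAFG00000005978) ran from 0 to 13.6. The RPS27A row ENSCAFG00000018187 was at 112, 134 and 0 in the 3 controls and listed at 0 in all 6 lymphomas, a split among the controls that left it outside the test.

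Ribosomal protein genes have many near-identical processed copies in mammalian genomes, and reads can be shared with those copies, so each row's count is uncertain to that extent. The dog RefSeq gene table (assembly UU_Cfam_GSD_1.0) lists 79 symbols that match the pattern, of which 55 had a row here. The other 24, among them RPLP2, RPL10, RPL13A, RPL22 and RPS26, were not analysed here.

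Ribosomal protein genes took a smaller part of the library in every lymphoma than in any control. Their share of all reads was 6.21%, 6.29% and 5.85% in controls 1 to 3. It was 2.76%, 2.44% and 4.29% in Boxers 1 to 3, and 3.77%, 2.99% and 3.74% in other breeds 1 to 3. The groups did not overlap, and the gap between the lowest control and the highest lymphoma, Boxer 3, was wider than the whole range of the controls. Means were 6.12% ± 0.234 (SD, n = 3) against 3.33% ± 0.707 (SD, n = 6), a 1.84-fold difference, with the lymphomas varying more among themselves. With mitochondrial reads taken out of the total, the shares were 6.31% ± 0.258 (SD, n = 3) and 3.70% ± 0.839 (SD, n = 6). In bulk samples, fewer cells of a type and less RNA per cell cannot be told apart.

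**Figure D1:**
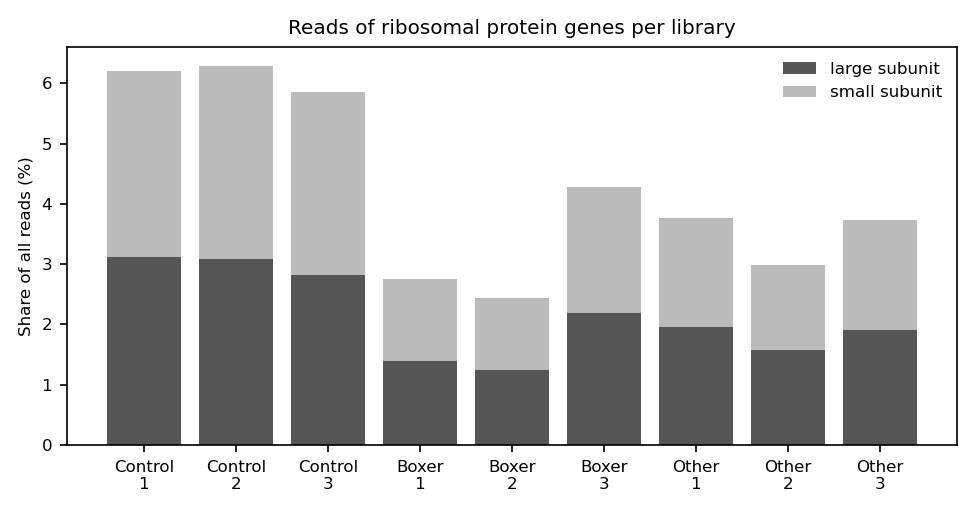
Share of all reads (%) that fell in ribosomal protein genes, 1 bar per library from 0, split into large subunit (dark) and small subunit (light); "Other" marks lymphomas of other breeds. All 6 lymphoma bars, 2.44% to 4.29%, end below the 3 control bars, 5.85% to 6.29%.

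Both subunits were lower. Large-subunit genes held 3.01% ± 0.165 of reads in controls (SD, n = 3) and 1.72% ± 0.366 in lymphomas (SD, n = 6). Small-subunit genes held 3.11% ± 0.0856 and 1.62% ± 0.343 in the same order. The ratio of the large-subunit to the small-subunit sum was 1.007, 0.965 and 0.929 in the controls. It was 1.026, 1.049 and 1.052 in the Boxers and 1.086, 1.107 and 1.046 in the other breeds, all above the highest control by a small margin.

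That separation of the subunit ratio was lost when RPS6 was left out. RPS6, the small-subunit protein phosphorylated by the S6 kinases, held 13.4%, 11.1% and 11.1% of small-subunit counts in the controls. In the lymphomas it held 10.5% in Boxer 1 and 4.88% to 7.98% in the other 5. Without RPS6, an alternative chosen after seeing the data, the ratios were 1.163, 1.085 and 1.045 in controls and 1.106 to 1.203 in lymphomas, so the groups overlapped, with means of 1.098 ± 0.060 (SD, n = 3) and 1.142 ± 0.0372 (SD, n = 6).

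Gene by gene, 33 of the 50 tested members fell in lymphoma and none rose, at a Benjamini-Hochberg adjusted p under 0.05 in limma's moderated test on log2(value + 1) over all 15977 genes tested. Among all genes tested, 15.7% fell and 19.4% rose. The 33 were 18 of 27 large-subunit and 15 of 23 small-subunit genes, a like share of each. All 50 had a negative log2 fold change, with a median of −0.91 and a range of −1.75 to −0.32, whereas the median of all genes tested was 0.05. Median changes were −0.95 for the large and −0.86 for the small subunit. On the linear scale the control mean was 1.23 to 3.30 times the lymphoma mean, with a median of 1.82.

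How many of the 50 passed moved with the number of controls and with an age term, while the size of the fall moved little. Leaving out control 1, 2 or 3 left 16, 15 or 22 members lower. Age as a covariate left 3, among them RPS6 at −1.71 (limma adjusted p = 0.0216) and RPS24 at −1.18 (0.0437). The median change was −0.91, −0.85 and −0.94 without control 1, 2 and 3 in turn and −0.93 with age as a covariate, with all 50 members negative in each of these fits. The count was 34 among the female dogs alone, 34 with edgeR's quasi-likelihood test and 35 with DESeq2.

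In 34 of the 50 members every lymphoma lay below every control (18 of 27 large, 16 of 23 small), against 17.2% of all genes tested. Of these, 30 also passed the test, while 4, among them RPL9, RPLP0 and RPS12, did not. RPL7, RPL12 and the RPS27 row ENSCAFG00000017386 passed although 1 or more lymphomas reached into the control range. RPL7, for instance, read 31247 in Boxer 3 and 31223 in control 3.

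**Figure D2:**
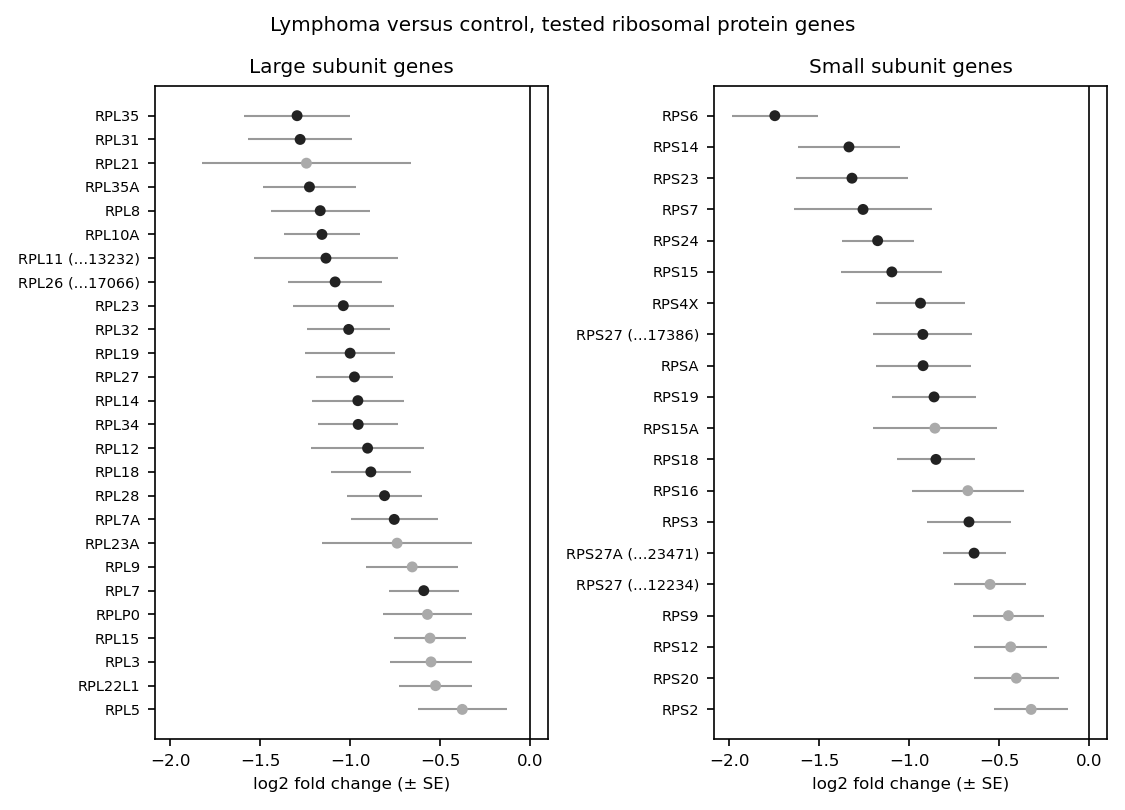
Log2 fold change of lymphoma (n = 6) against control (n = 3) for tested large-subunit and small-subunit genes, without those not reported here, with bars of ± 1 standard error; black points passed a limma adjusted p under 0.05 and grey points did not. Every point lies left of 0, from RPS6 at −1.75 to RPS2 at −0.32.

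RPS6 showed the largest difference of the 50. Its normalised count was 66165, 54101 and 49180 in controls 1 to 3, 20553, 10549 and 15675 in Boxers 1 to 3, and 19053, 16314 and 20604 in other breeds 1 to 3. The highest lymphoma was far below the lowest control, and Boxer 2 was lowest of all. The fall was 3.30-fold (log2 fold change −1.75 ± 0.24 SE, limma adjusted p = 5.81e-04). Set against the median member of its own library, RPS6 was 0.85 lower on the log2 scale on average in the lymphomas, with Boxer 1 at −0.08 and the other 5 between −0.70 and −1.37. RPS6 passed the test in each of the 24 alternatives run for it.

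In the small-subunit body and platform, RPS6 included, 9 of 13 tested rows fell and none rose, with a median log2 fold change of −0.94. This was near the share of all members, 33 of 50 with a median of −0.91, where 15.7% of all genes fell. RPS14, a platform protein whose gene is lost in the human 5q deletion syndrome, read 53281, 45731 and 42412 in controls, 12886, 13375 and 25426 in Boxers, and 25251, 14899 and 25208 in other breeds. Controls and lymphomas were far apart, and within the lymphomas Boxers 1 and 2 and other breed 2 formed the low end. Its fall was 2.42-fold (−1.33 ± 0.28 SE, limma adjusted p = 0.0056). RPS24, mutated in some patients with Diamond-Blackfan anaemia, read 25509, 30891 and 30889 in controls, 9620, 11927 and 13486 in Boxers, and 16868, 11428 and 15003 in other breeds (−1.17 ± 0.20 SE, limma adjusted p = 0.0019). The 6 lymphomas lay closer together for RPS24 than for most members, with an SD of 0.29 on the log2 scale.

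RPS7, which also binds MDM2, was among the 4 most variable members in the lymphomas. It read 29907, 31808 and 29246 in controls, 5819, 9814 and 19717 in Boxers, and 20821, 9930 and 17911 in other breeds. The controls were nearly equal and the lymphomas spread from 5819 to 20821, still without overlap (−1.26 ± 0.38 SE, limma adjusted p = 0.0278). The test of RPS7 did not pass when any 1 control was left out (adjusted p = 0.0792 to 0.095). RPS4X, the X-linked member of its family, went from 34051 ± 1124 (SD, n = 3) to 18400 ± 5159 (SD, n = 6), and RPSA, first known as a laminin receptor, went from 28489 ± 671 to 15664 ± 4724. Both passed (limma adjusted p = 0.0152 and 0.0217), and both lost the call without control 1 or without control 2 (0.058 to 0.0787), RPSA also without control 3 (0.0717).

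RPS2, which lines the entry of the mRNA channel, changed least and is named here because of that value. It read 13934, 16751 and 15343 in controls, 11702, 8478 and 14342 in Boxers, and 11397, 12787 and 16204 in other breeds. Boxer 3 and other breed 3 lay inside the control range (−0.32 ± 0.21 SE, limma adjusted p = 0.241, 95% interval −0.78 to 0.13). Relative to the median member of the same library, RPS2 was higher than that member in all 6 lymphomas, by 0.57 on the log2 scale on average.

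In the small-subunit head, 5 of 9 tested genes fell (median −0.67), beside 33 of all 50 members and 15.7% of all genes. RPS19, the gene most often mutated in Diamond-Blackfan anaemia, read 13416, 19475 and 19006 in controls, 7569, 6996 and 9214 in Boxers, and 11474, 9163 and 13360 in other breeds. Control 1 and other breed 3 almost met (−0.86 ± 0.23 SE, limma adjusted p = 0.0163), and the call was lost without control 2 (0.0824) or control 3 (0.073).

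RPS18 fell from 18441 ± 1880 (SD, n = 3) to 10424 ± 2244 (SD, n = 6), a log2 fold change of −0.85 (limma adjusted p = 0.0133), and lost the call without control 1 (0.0593) or control 2 (0.0605). RPS3, a protein of the mRNA entry channel, went from 22696 ± 1904 to 14686 ± 3871 (−0.67, limma adjusted p = 0.0478) and lost the call in 12 of the 24 alternatives, among them each omission of a control. Head genes that did not pass included RPS12, RPS16 and RPS20, at −0.44, −0.67 and −0.40. The ubiquitin fusion gene RPS27A (ENSCAFG00000023471), which yields ubiquitin with a small-subunit protein, fell from 10085 ± 268 to 6569 ± 1227 (−0.64, limma adjusted p = 0.0181; 0.0573 to 0.0756 when any 1 control was left out).

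**Figure D3:**
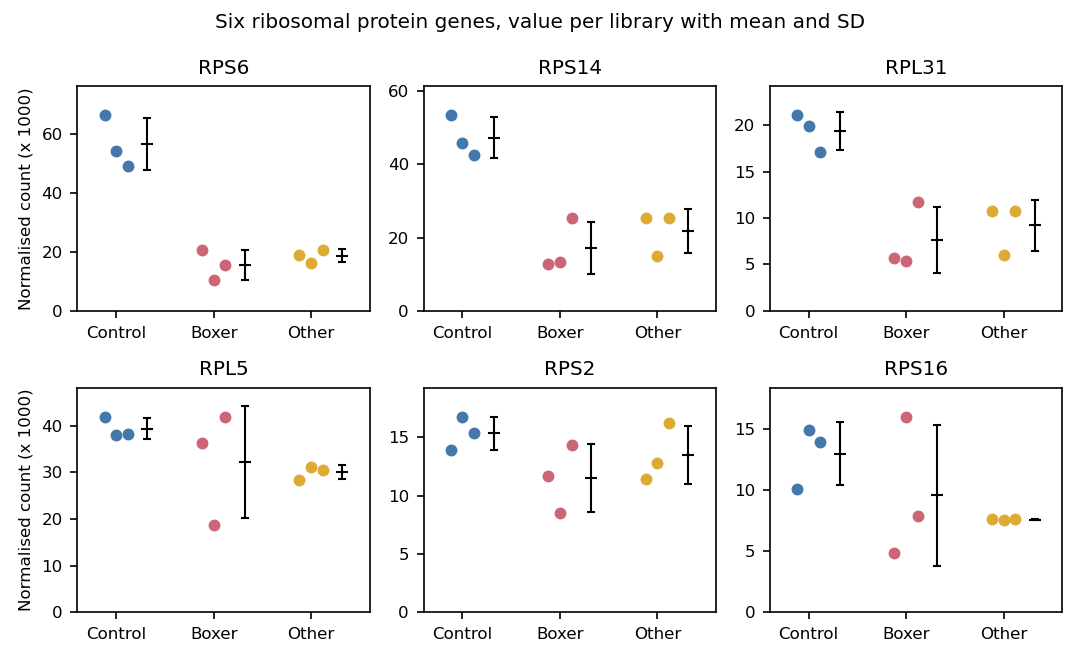
Normalised count divided by 1000 (linear axis from 0) of 6 ribosomal protein genes, 1 point per library, with the mean and SD of each group of 3 beside the points. RPS6, RPS14 and RPL31 show every lymphoma below every control, while in RPL5, RPS2 and RPS16 some lymphomas reach the control values.

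Large-subunit genes around the exit tunnel, through which the new protein leaves, fell in 4 of 5 tested rows (median −1.08). Beside this, 33 of all 50 members and 15.7% of all genes fell. RPL31, at the tunnel's rim, read 21052, 19866 and 17107 in controls, 5747, 5336 and 11685 in Boxers, and 10762, 6052 and 10803 in other breeds. Boxers 1 and 2 and other breed 2 were lowest, and the other 3 lymphomas lay between them and the controls (−1.28 ± 0.29 SE, limma adjusted p = 0.0076). RPL35 fell by 1.29, RPL26 (ENSCAFG00000017066) by 1.08 and RPL19 by 1.00 on the log2 scale; RPL19 lost the call without control 1 (0.055) or control 2 (0.0611). RPL23A, the fifth, docks the signal recognition particle and varied within every group, with 553, 1402 and 1598 in the controls and 370 to 1247 in the lymphomas (−0.74, limma adjusted p = 0.189).

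RPL10A, the protein of the L1 stalk that helps the spent tRNA leave, read 20278, 18345 and 16038 in controls, 5614, 7296 and 10379 in Boxers, and 9981, 7591 and 9010 in other breeds. No lymphoma came near a control (−1.16 ± 0.21 SE, limma adjusted p = 0.0026). RPL35A fell by 1.23 (limma adjusted p = 0.0053) and RPL27 by 0.98 (0.0063), both Diamond-Blackfan genes, and neither showed any overlap. RPL32 fell by 1.01 (0.0079) and RPL23, another MDM2-binding protein, by 1.04 (0.0167), the latter losing its call without control 1 or control 2 (0.0783 and 0.0607). RPL34 fell by 0.95 (0.0087).

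The 5S particle joins RPL5 and RPL11 with 5S RNA, and the same particle binds MDM2 when ribosome assembly fails. The RNA counts of the genes for both proteins follow. RPL5 read 41933, 38005 and 38293 in controls, 36358, 18823 and 41809 in Boxers, and 28450, 31262 and 30542 in other breeds. Boxer 3 matched the controls and Boxer 2 was far lower than any other library (−0.38 ± 0.25 SE, limma adjusted p = 0.253, 95% interval −0.92 to 0.17). RPL11 (ENSCAFG00000013232) read 25005, 21939 and 18450 in controls, 4178, 8147 and 16141 in Boxers, and 15884, 7642 and 13736 in other breeds. It was the most variable member among the lymphomas, with an SD of 0.77 on the log2 scale, and passed at the margin (−1.13 ± 0.40 SE, limma adjusted p = 0.0497), with 0.0592 by edgeR and 0.0958 to 0.155 when any 1 control was left out. The 95% interval of RPL11, −2.02 to −0.24, overlapped that of RPL5, and the difference between RPL5 and RPL11 was not tested. Boxer 1, the library with the lowest RPL11, had an RPL5 just under the lowest control.

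For the stalk that binds elongation factors, RPLP0 read 23493, 20686 and 20047 in controls, 12274, 15849 and 19992 in Boxers, and 16438, 8666 and 15989 in other breeds. All 6 lymphomas were lower than all 3 controls, Boxer 3 by the smallest margin, and the test did not pass (−0.57 ± 0.25 SE, limma adjusted p = 0.0968). RPL12, at the base of the stalk, went from 32283 ± 9590 (SD, n = 3) to 17502 ± 5594 (SD, n = 6) and passed (−0.90, limma adjusted p = 0.0465), although control 3 at 21613 lay below 3 lymphomas. RPL3, which reaches toward the peptidyl transferase centre, went from 18980 ± 2019 to 13273 ± 3458 (−0.55, limma adjusted p = 0.0821), with Boxer 3 inside the control range. Without Boxer 3 it passed (0.0388).

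RPL7 went from 34277 ± 3131 (SD, n = 3) to 23017 ± 4417 (SD, n = 6), a log2 fold change of −0.59 (limma adjusted p = 0.039), and lost the call in 13 of 24 alternatives. RPL22L1, the paralog that can replace RPL22, read 1566, 1289 and 1069 in controls and 679 to 1149 in lymphomas with a median of 950, so the ranges met (−0.53, limma adjusted p = 0.0672). It was the 1 paralog with enough reads to test. Among the other tested genes, RPL7A, RPL8, RPL14, RPL18, RPL28, RPS15 and RPS23 fell, by 0.75 (RPL7A) to 1.32 (RPS23) on the log2 scale. RPL28 lost this call without control 2 (limma adjusted p = 0.0761) or control 3 (0.0535). RPL9, RPL15, RPS9, RPS15A and the RPS27 row ENSCAFG00000012234 did not pass, with values from −0.45 (RPS9) to −0.86 (RPS15A). The RPS27 row ENSCAFG00000017386 fell by 0.92 (limma adjusted p = 0.0254) and lost the call without control 1, 2 or 3 (0.0527, 0.119 and 0.0726), and RPL21 was at −1.24 ± 0.58 SE (0.119). Of the human Diamond-Blackfan genes, 12 of 18 tested rows fell (median −0.95). That was near the share of all members, 33 of 50 with a median of −0.91, where 15.7% of all genes fell.

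The low level was unequal among the lymphomas, and the same libraries were low or high for most members. The median member lay 1.37, 1.25 and 0.47 log2 units below the control mean in Boxers 1, 2 and 3, and 0.58, 1.08 and 0.60 below it in other breeds 1, 2 and 3. The median over all genes stayed between 0.00 and 0.08 in those libraries. Boxer 3 was the highest of the 6 lymphomas for 28 of 50 members (56%, against 14.3% of all genes), and Boxer 1 was the lowest for 24 (48%, against 19.5%). Members below every control numbered 50, 48 and 36 in Boxers 1 to 3 and 47, 49 and 48 in other breeds 1 to 3. A like count per library was not made over all genes, so these numbers have no background beside them. The members share each library, so these counts describe libraries and are not separate observations.

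**Figure D4:**
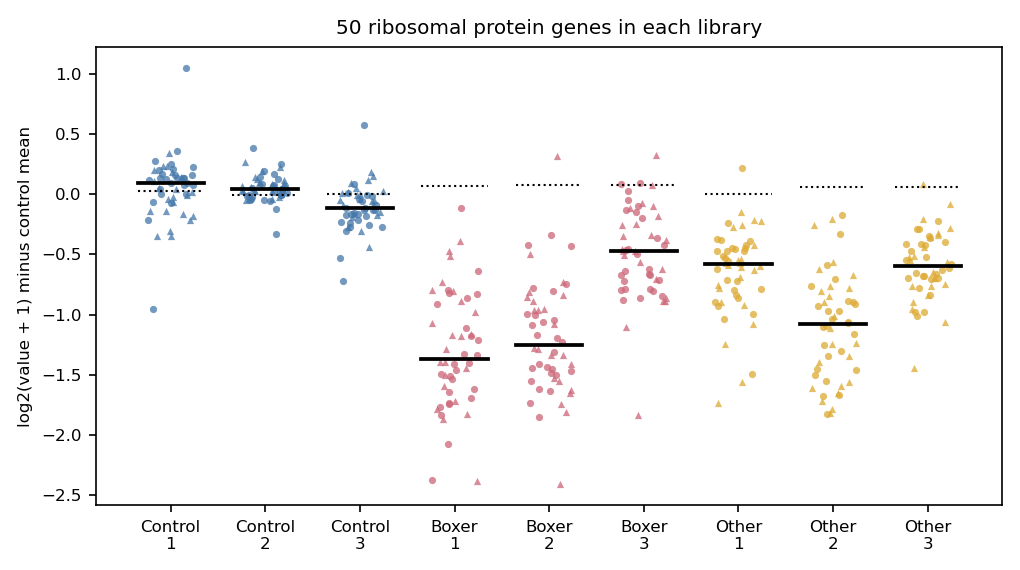
Each point is 1 of the 50 tested genes, as log2(normalised count + 1) minus the control mean of that gene; circles are large-subunit and triangles small-subunit genes, solid bars mark the median member and dotted bars the median of all genes tested. The solid bars of Boxer 1, Boxer 2 and other breed 2 lie at −1.37, −1.25 and −1.08, and those of the other 3 lymphomas between −0.60 and −0.47.

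Members varied more among lymphomas than among controls in 48 of 50 cases, a share that was not counted over all genes. The median SD of log2 values was 0.42 against 0.15. Over all genes tested it was 0.56 against 0.25, so a wider spread in lymphoma was not particular to the members.

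The Boxer lymphomas were then set against those of other breeds. No member passed the test: 0 of 50 were called by limma, in either direction, where 0% of 15112 genes were lower and 0% higher. For the members edgeR, DESeq2 and limma-voom also gave 0, while over all genes DESeq2 called 58 lower and 44 higher. One member, RPL28, had an unadjusted limma p under 0.05. Levels were lower in Boxers for 40 of 50 members, with a median log2 difference of −0.23 (−0.30 for the large and −0.16 for the small subunit) against 0.02 for all genes. That median moved with single libraries: it was −0.09 without Boxer 1, −0.14 without Boxer 2 and −0.45 without Boxer 3, and −0.16, −0.41 and −0.15 without other breeds 1, 2 and 3. The sign stayed negative, with 33 to 48 of 50 members lower. The share of genes lower in Boxers was not counted over all genes. Members share each library, so these counts describe libraries and are not separate observations. The summed share was 3.16% ± 0.986 of reads in Boxers (SD, n = 3) and 3.50% ± 0.440 in other breeds (SD, n = 3), within the spread of either group.

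RPL28 read 5678, 5725 and 7097 in Boxers and 9282, 7582 and 9689 in other breeds. These groups did not overlap (−0.52 ± 0.20 SE, 95% interval −1.0 to −0.04, limma adjusted p = 0.881). RPS19 differed by −0.51 (95% interval −1.05 to 0.03) and RPL27 by −0.48 (−1.04 to 0.08), with the same adjusted p. In 49 of 50 members the interval included 0. Its lower bound was −0.53 (RPLP0) or further below 0 in every member, and its upper bound lay above 0.5 in 28. The data therefore do not show that the 2 groups of lymphoma had like levels.

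Each lymphoma group was also compared with the controls on its own; these 2 comparisons share the same 3 control libraries. In Boxer lymphoma 31 of 50 members fell (17 large, 14 small) and none rose, with a median of −1.03, where 17.9% of 15155 genes fell and 21.5% rose. In lymphoma of other breeds 25 of 50 fell (12 large, 13 small) and none rose, with a median of −0.76, where 14.2% of 14631 genes fell and 15.5% rose. RPS6 was −1.90 ± 0.29 SE in Boxers (limma adjusted p = 0.0024) and −1.59 ± 0.22 SE in other breeds (0.0033). RPL5 was −0.36 ± 0.33 SE (0.405) and −0.39 ± 0.20 SE (0.173). With 2 controls the counts dropped to 18 and 17 in Boxers without control 1 or control 2, and to 8, 4 and 8 in other breeds without control 1, 2 or 3.

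RACK1, a ribosomal protein under another kind of name and a signalling scaffold on the small-subunit head, went from 14542 in controls to 11409 in lymphomas on average and did not pass (−0.46 ± 0.33 SE, limma adjusted p = 0.304).

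Further TOP messenger RNAs, many of which encode translation factors, fell in 7 of 19 tested genes and rose in none (median −0.55), where 15.7% of all genes fell and 19.4% rose. Initiation factor EIF4B fell by 1.10 (limma adjusted p = 0.0043), the nascent-chain protein NACA by 0.78 (0.0172), the growth-linked protein TPT1 by 1.05 (0.0208) and elongation factor EEF1D by 0.74 (0.0227). EEF1A1, which brings tRNA to the ribosome, was at 291889 in controls and 161168 in lymphomas on average (−0.86, 0.0376). The nucleolar chaperone NPM1 and the actin-binding TMSB10 had positive values that did not pass, 0.56 and 0.83.

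Regulators of ribosomal protein synthesis went both ways, with 6 of 22 higher and 2 lower (median −0.11), shares not far from the 19.4% and 15.7% of all genes. The mTOR partner MLST8 rose by 1.45 (limma adjusted p = 0.0071), the kinase RPS6KA3 by 0.94 (0.0156), the translation repressor EIF4EBP2 by 0.70 (0.0215) and MTOR itself by 0.51 (0.0404). MYC, a driver of ribosome production, fell by 0.68 (0.0082), and the transcription factor SP1 fell by 0.56 (0.0349). LARP1 was at −0.04 ± 0.16 SE (0.852).

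Chaperones, importers and assembly factors of ribosomal proteins rose in 7 of 27 and fell in 2 (median 0.11), beside 19.4% and 15.7% of all genes, so the higher share was near the background. The importers IPO7 and KPNB1 rose by 0.86 (limma adjusted p = 0.0029) and 0.75 (0.0057), the RPL3 chaperone GRWD1 by 1.61 (0.0114) and BCCIP, a chaperone of RPL23, by 0.60 (0.0214). TSR3, which modifies 18S RNA, fell by 1.53 (0.0023), and NMD3, an export adaptor of the large subunit, fell by 0.40 (0.0481). Genes of the nucleolar stress response rose in 1 of 13 and fell in 4 (median −0.27), beside the same shares of all genes: SESN1 fell by 2.80 (6.9e-05), FAS by 3.75 (0.0022), MDM2 by 0.62 (0.0085) and PMAIP1 by 2.75 (0.0438).

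**Figure D5:**
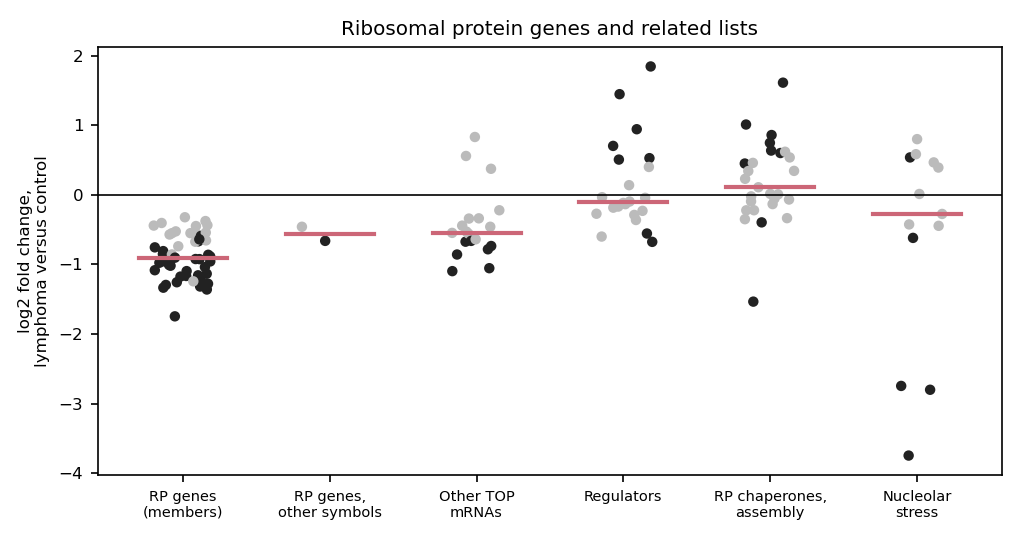
Log2 fold change of lymphoma against control for each tested gene of the ribosomal protein set and 5 related lists; black points passed a limma adjusted p under 0.05, grey points did not, and red bars are medians. Ribosomal protein genes all lie below 0 (median −0.91), further TOP mRNAs have a median of −0.55, and regulators (−0.11) and chaperones (0.11) scatter on both sides.

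Markers of other cell types moved with the same contrast. Monocyte and macrophage markers were higher in lymphoma for 8 of 9 genes, with sums of 130 to 201 in controls and 905 to 21102 in lymphomas. Neutrophil markers were higher for 4 of 4 (17.3 to 32.4 against 104 to 412). Stromal markers were higher for 6 of 8 (12.4 to 24.6 against 77.3 to 11339), and LUM and MMP2 were at 0 in all controls. Endothelial markers were higher for 3 of 6 (306 to 691 against 94.2 to 6244). KDR made up most of the endothelial sum in the controls, at 626, 298 and 262 in controls 1 to 3. It had a negative value that did not pass (−1.01, limma adjusted p = 0.509). Of the erythroid markers only ALAS2 had enough reads to test, and it was higher (sums of 146 to 206 against 320 to 423), with HBM at 0 in all controls. For B cell markers 0 of 8 passed (2262 to 2496 against 1753 to 7391), and for cytotoxic cells 1 of 7, PRF1, was higher (344 to 1058 against 143 to 1342).

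The lymphomas with the highest ribosomal protein shares, Boxer 3 and other breeds 1 and 3, had stromal sums of 11339, 139 and 7647, and macrophage sums of 12052, 905 and 21102. Those with the lowest, Boxers 1 and 2 and other breed 2, had stromal sums of 2989, 2168 and 77.3, and macrophage sums of 12753, 6110 and 3437. Other breeds 1 and 2 had the lowest stromal and endothelial sums of the lymphomas, and without both of them 32 members fell. That fit kept the lymphomas with the higher sums, so it is no check on the part of other cells. The part of other cells in the lower level of ribosomal protein genes was not tested.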

How the data were processed

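Per the submitters' processing notes, reads were aligned to CanFam3.1 with TopHat2, counted with HTSeq and handled with DESeq2; versions and strandedness are not given in the sources used here. RNA integrity was above 8.8, per the labels. The deposited values are a signal: counts per gene divided by 1 size factor per library. The whole reads were recovered from the steps between low values; 100% of values in every library came out whole within 0.01.

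Values were tested with limma 3.58.1 (R 4.3.3) on log2(value + 1), with an intensity trend and Benjamini-Hochberg adjustment over all genes reaching 10 in at least 3 libraries of the comparison. A fold change on this scale understates the change of low genes. edgeR 4.0.16, DESeq2 1.42.0 and limma-voom on the recovered reads were alternatives, as were other scalings, filters, pseudocounts (0.5 and 5), omitted libraries, sex, age and the replicate number as a block. With edgeR 34 members and 2290 of all genes were lower. Replicates of each group differed beyond counting noise, so no library was counted as a copy of another. This cannot show whether the controls came from separate dogs. The chi-square per gene between 2 libraries of a group was 18.8 to 37.9 in the controls and 112.6 to 148.8 in the lymphomas.

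Members, gene lists, roles and markers were chosen with earlier results of these data known. Genes were named by rank of p, level and spread, plus a list of well-studied members; RPS2 and RPS16 were added after their values were seen. Some genes are not reported here by name; they remain in the counts and medians.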

Additional observations from a re-analysis of the deposited data

Results flagged for a closer look

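Among 52 values screened in the 6 lymphomas (each tested member, the summed share and the subunit ratio), 2 had 1 library far from the other 5, by a test that flags about 1 in 20 groups by chance. RPS16, a small-subunit head protein near the P site, was at 15995 in Boxer 2. The other 5 lymphomas lay between 4861 and 7856 and the controls between 10063 and 14952, so Boxer 2 exceeded every control for this gene while its median member lay 1.25 log2 units below them. RPL21, the tested member with the fewest reads, was at 45.8 in Boxer 3, where the other 5 lymphomas read 11.9 to 22.3 and the controls 94.2, 35.5 and 26.9.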

How the results depend on the processing

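The count of members lower in lymphoma, 33, was 28 to 45 under every other scaling, filter, pseudocount, tool, sex and block setting. It moved beyond 1.5 times with age as a covariate (3) and without control 1 (16) or control 2 (15). Without control 3 it was 22. With any 1 lymphoma left out it was 29 (without Boxer 2) to 40 (without Boxer 3). For Boxers the count of 31 ran from 17 to 43 over omitted libraries, and for other breeds the count of 25 ran from 4 to 29. No named member changed direction against the controls in any setting run. The difference between the large-to-small ratios went from 0.094 to 0.045 without RPS6. The replicate number does not pair the libraries, which come from different dogs: same-numbered libraries correlated at −0.136 to 0.104 in their deviations. With it as a replicate block, 29, 27 and 14 members were lower in all lymphomas, Boxers and other breeds, and 0 differed between the lymphoma groups. The cause of these moves was not tested.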
